A study of Drosophila melanogaster with 3 samples.

Results

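Deep intronic peaks are places far from any gene start, inside an intron, where the transcription factor Deadpan (Dpn) was found on the DNA of fly embryos. Of the 6253 peaks in the authors' thresholded set on the dm6 build, 719 met the definition, or 11.5% (exact 95% interval 10.7 to 12.3, which like all intervals of shares and densities here covers counting error only). A member's summit, its point of highest signal, lay inside an intron and outside every exon. It also lay more than 500 bp from every annotated start site and more than 5000 bp from the nearest start of a protein-coding gene. The other classes were 3250 promoter peaks within 500 bp of a start, 1330 near intronic peaks up to 5000 bp from a protein-coding start, 815 intergenic peaks and 139 exonic peaks away from promoters.

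The chromatin came from embryos of Drosophila melanogaster collected from 0 to 16 h of development, in 3 biological replicates of 1 group. All 3 carried a dpn transgene with green fluorescent protein (GFP) at its C-terminal end, and chromatin was pulled down through GFP, so the tagged copy was measured rather than the endogenous protein. Per the labels it was a single transgenic strain, and males and females were pooled. Whole embryos were used, so peaks from different cell types or from early and late embryos cannot be told apart.

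Dpn is a repressor with a basic helix-loop-helix domain, in one class with Hairy, and is known for holding neural stem cells (neuroblasts) in a dividing, undifferentiated state. Proteins of this class bind the E-box-like words CACGTG and CACGCG and recruit the corepressor Groucho. Many developmental enhancers of flies lie inside introns, often in long first introns, and a peak there need not act on the gene around it. The gene whose intron holds a peak is therefore called its host, with no statement on regulation.

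The sequences at the strongest members have GC contents from 23.8% to 46.5%, beside a mean of 32.5% at the summits of all members. CG32486 and Hr4, at 46.5% and 42.6%, do not share the low GC that most summits show below. Each sequence spans the summit and 50 bases on either side, from the RefSeq Release 6 assembly (dm6), plus strand, 5′ to 3′, and capitals mark runs of at least 6 A or T. The 6 here are among the 7 strongest members, and the line for N, which encodes the Notch receptor, was added for its role in neuroblasts.
CG32486, chr3L:3060732-3060832: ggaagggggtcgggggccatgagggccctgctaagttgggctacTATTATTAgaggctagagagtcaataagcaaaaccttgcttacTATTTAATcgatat
Gug, chr3L:8458247-8458347: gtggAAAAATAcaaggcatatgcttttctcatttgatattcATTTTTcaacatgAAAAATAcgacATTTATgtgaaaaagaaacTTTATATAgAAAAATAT
simj, chr3L:10682960-10683060: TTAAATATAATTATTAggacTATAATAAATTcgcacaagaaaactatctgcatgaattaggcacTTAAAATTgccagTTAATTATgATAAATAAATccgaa
tara, chr3R:16236933-16237033: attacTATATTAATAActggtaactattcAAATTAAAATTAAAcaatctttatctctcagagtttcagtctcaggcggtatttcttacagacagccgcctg
Hr4, chrX:1951847-1951947: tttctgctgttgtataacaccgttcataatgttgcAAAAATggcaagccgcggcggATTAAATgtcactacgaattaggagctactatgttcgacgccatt
JIL-1, chr3L:11084724-11084824: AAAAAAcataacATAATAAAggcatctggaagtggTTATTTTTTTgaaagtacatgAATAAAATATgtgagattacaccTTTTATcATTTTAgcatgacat
N, chrX:3162477-3162577: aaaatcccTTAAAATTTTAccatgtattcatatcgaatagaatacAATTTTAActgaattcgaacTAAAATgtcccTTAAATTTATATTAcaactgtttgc

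The words that Dpn-class proteins bind were rare at these summits, and 3 of the 5 members with one of them within 50 bp of the summit are printed here, with the word in capitals. The peak in CG33298 held CACGTG, and those in mgl, which encodes a lipoprotein receptor of the megalin type, and in Cph held CACGCG.
CG33298, chr2L:9505771-9505871: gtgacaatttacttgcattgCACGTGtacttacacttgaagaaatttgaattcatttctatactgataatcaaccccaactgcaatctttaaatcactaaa
mgl, chrX:9416221-9416321: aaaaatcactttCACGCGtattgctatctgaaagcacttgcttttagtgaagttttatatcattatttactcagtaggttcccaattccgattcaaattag
Cph, chrX:7162664-7162764: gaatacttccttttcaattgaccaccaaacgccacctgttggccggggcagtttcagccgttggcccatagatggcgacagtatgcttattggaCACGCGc

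The last set shows another E-box, CAGATG, that was more frequent in deep intronic than in near intronic peaks. It is in capitals below, as the reverse complement CATCTG in all 4 lines, which come from 4 of the stronger members that have it. The JIL-1 sequence above holds it as well. In the Hr4 and CG43980 lines the word runs on from the bases GCGC.
Raf, chrX:2300666-2300766: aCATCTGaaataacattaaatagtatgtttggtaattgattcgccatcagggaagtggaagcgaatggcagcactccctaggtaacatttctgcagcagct
dpp, chr2L:2433606-2433706: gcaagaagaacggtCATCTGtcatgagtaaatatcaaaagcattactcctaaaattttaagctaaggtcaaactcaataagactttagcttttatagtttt
Hr4, chrX:1953058-1953158: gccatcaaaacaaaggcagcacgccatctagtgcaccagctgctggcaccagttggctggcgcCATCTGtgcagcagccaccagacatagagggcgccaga
CG43980, chr3L:21652948-21653048: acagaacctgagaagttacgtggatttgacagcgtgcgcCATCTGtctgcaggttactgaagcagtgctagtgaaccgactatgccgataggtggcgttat

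Signal, the authors' deposited value per peak on an undefined scale, ranged from 122 to 1530 among the 719 members with a median of 182. The strongest lay in the first intron of CG32486, at position 3060782 of 3L, with a pooled signal of 1530.4. It had signals of 298, 514 and 719 in the separately called lists of replicates 1, 2 and 3, where it ranked 71st, 51st and 64th. Scales differ between lists, so ranks were used to compare them.

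The next members by signal lay in Hr3, Gug and simj. The member in Hr3, a nuclear receptor gene of the ecdysone response, had a signal of 1366 and ranks of 97, 59 and 96 in the 3 replicates, and its summit also fell in CG12912 and CG46321. The member in Gug, which encodes the corepressor Grunge, had 1242 and ranks of 72, 109 and 117. The one in simj, which encodes a subunit of a nucleosome-remodelling and deacetylase complex, had 1161 and ranks of 96, 120 and 128.

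The strongest member in tara, a gene with trithorax-group functions, had a signal of 1076 and ranks of 139, 118 and 154. The member in JIL-1, which encodes a histone H3 kinase, had 991 and ranks of 109, 267 and 166, so replicate 2 placed it lower than the others did. Hr4, another nuclear receptor gene of the ecdysone response, held 3 of the 20 strongest members. Their signals were 1052, 853 and 731, at 9957, 22000 and 5812 bp from the nearest protein-coding start, which for each was that of Hr4.

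The remaining hosts among the 20 strongest were Mi-2 and Su(Tpl) (1 shared peak), the non-coding gene lncRNA:CR44810, gpp, fz, Tis11, Dad, Lrch, Smr, sbb, crp and N. Mi-2 encodes a remodelling ATPase, gpp a histone H3 methyltransferase, and Smr and sbb encode corepressors. Tis11 encodes an RNA-binding protein of messenger RNA decay, Dad an inhibitor of Dpp signalling, fz a Wnt receptor and crp a basic helix-loop-helix protein. The N member had a signal of 606 and ranks of 360, 475 and 605, and the other N member had a signal of 178. All 20 stood within the first 605 peaks of every replicate list.

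**Figure D1:**
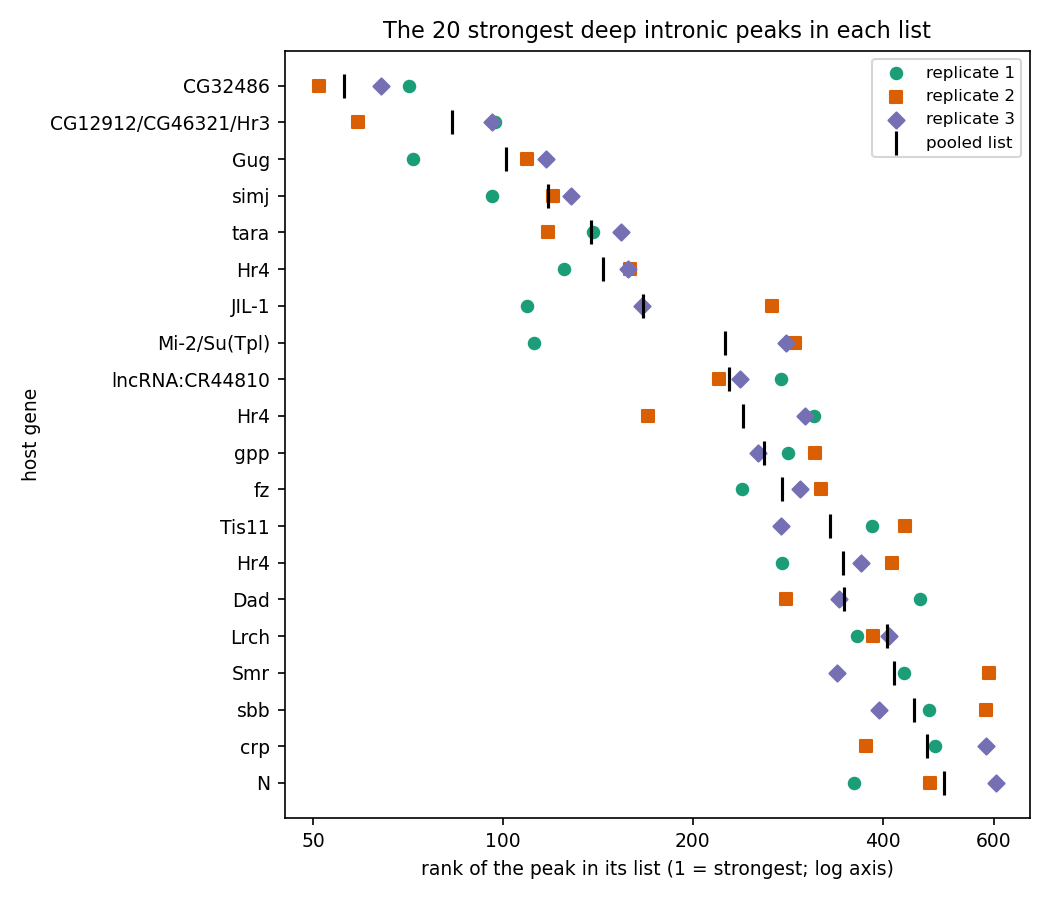
Rank of the 20 strongest deep intronic peaks (1 row each, named by host gene) in the list of each replicate (coloured symbols) and in the pooled list (black tick), on a log axis where 1 is the strongest peak. Ranks run from 51 to 605 in the replicate lists, and the 7 topmost rows stay within the first 267 in every replicate.

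Strong members were seen in every replicate and weak ones less often. A member was counted as supported by a replicate when it overlapped one of that replicate's 6253 first-ranked peaks, and 430 of 719 members (59.8%, 56.1 to 63.4) were supported by all 3. Replicate 1 supported 525 members (73.0%), replicate 2 supported 627 (87.2%) and replicate 3 supported 651 (90.5%). With the 6253 peaks cut by signal into 5 equal groups, 98.7% of the 78 members in the strongest group were supported by all 3 replicates, against 8.42% of the 190 members in the weakest. A fall of support with signal was built in. Members and their signal came from the pooled replicates, and support was counted within each replicate's first 6253 peaks.

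Near the limit of the set the replicates thus did not hold the same peaks, but lower down their lists they mostly did. With 2 times as many first-ranked peaks per replicate, 664 members (92.4%) were supported by all 3, and 701 were listed at any rank in all 3. Across those 701 members Spearman's rho of ranks was 0.60 between replicates 1 and 2, 0.68 between 1 and 3 and 0.77 between 2 and 3, given as a description because the members were chosen on the pooled reads. The 2 members with no replicate support lay in aos, shared with CG33158, and in pyd, with signals of 128 and 123.

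Support in all 3 replicates was 71.4% among promoter peaks, 70.2% among near intronic and 61.1% among intergenic peaks. A logistic model over all 6253 peaks, with log2 signal as a term (n = 719 against 3250, 1330 and 815) and standard errors clustered by the nearest gene, gave odds ratios of 0.984 against promoter peaks (0.779 to 1.24, adjusted p = 0.89), 0.816 against near intronic peaks (0.629 to 1.06, adjusted p = 0.31) and 1.05 against intergenic peaks (0.79 to 1.39, adjusted p = 0.81). None passed at equal signal, and without the signal term the log odds against promoter and near intronic peaks fell to -0.52 and -0.46 and passed. All such p-values cover the spread between peaks of 1 set, which are not independent replicates, and were adjusted by Benjamini-Hochberg over 12 class contrasts.

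Deep intronic peaks were weaker than promoter and near intronic peaks. Their median signal was 182, with quartiles of 147 and 282, against medians of 226 for promoter, 214 for near intronic and 189 for intergenic peaks. In a linear model of log2 signal with standard errors clustered by the nearest gene, they lay -0.33 (SE 0.03, n = 719 against 3250) from promoter peaks on the log2 scale, a ratio of 0.797 (adjusted p = 4.6e-24). The difference from near intronic peaks was -0.22 (SE 0.04, n = 719 against 1330), a ratio of 0.86 (adjusted p = 3.4e-09). From intergenic peaks it was -0.04 (SE 0.04, n = 719 against 815), a ratio of 0.97 (0.921 to 1.02, adjusted p = 0.44), which did not pass.

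The same order held with each replicate's own signal, at -0.43, -0.33 and -0.38 against promoter peaks and -0.28, -0.26 and -0.23 against near intronic peaks in replicates 1, 2 and 3. Among the 100 strongest peaks of the set 2 were deep intronic, and among the 500 strongest 19 were. From the strongest of the 5 signal groups to the weakest, the members numbered 78, 149, 124, 178 and 190. The authors' relaxed pooled list went on the same way below the threshold, where the deep intronic share grew from 10.6% of its first 5000 peaks to 21.3% of its last 5000. That list holds background by design, and deep intronic sequence makes up 23.0% of the genome used here.

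**Figure D2:**
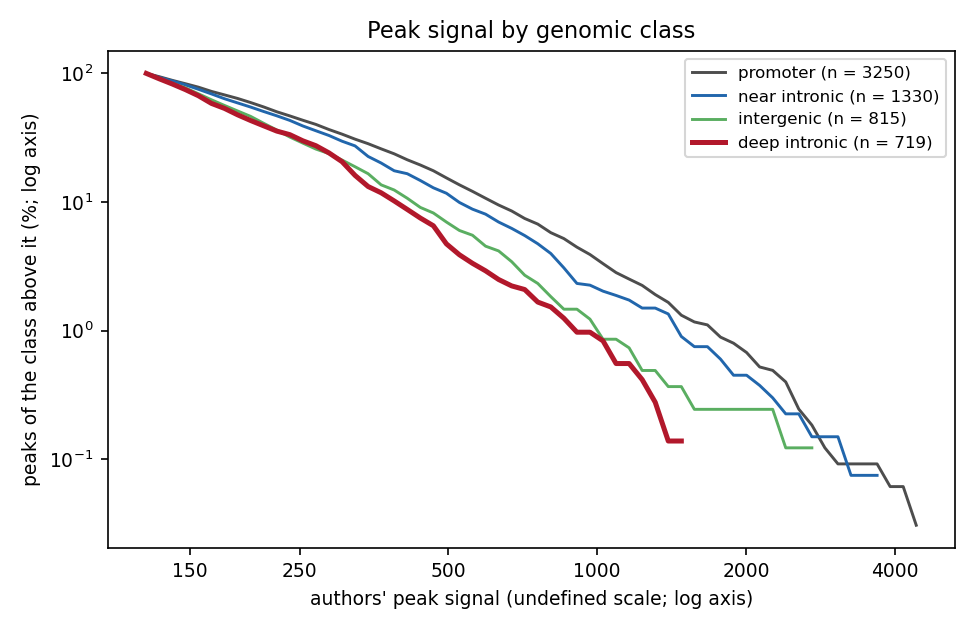
Share of the peaks of each class (%, log axis) with at least the authors' signal on the x axis (undefined scale, log axis). The deep intronic curve (red, 719 peaks) lies below the promoter and near intronic curves and ends at 1530, where the promoter curve ends at 4420.

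Members' summits sat in a narrow dip of GC content. The mean GC within 50 bp of the summit was 32.5% ± 7.36 (SD, n = 719), against 42.5% ± 8.73 in an equally wide flank window 500 bp away and 40.2% over all deep intronic sequence. GC was lower at the summit than in its flank for 571 members (79.4%). In bins of 20 bp it fell from 46.1% at 280 bp before the summit to 31.3% at the summit and was 45.0% again 240 bp after it.

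The dip was not particular to deep introns, since GC was lower at the summit than in the flank for 74.1% of promoter, 78.0% of near intronic and 75.2% of intergenic peaks. In the linear model the difference in GC from promoter summits was -3.43 percentage points (SE 0.34, n = 719 against 3250, adjusted p = 1.4e-22), and from intergenic summits it was -1.42 (SE 0.41, n = 719 against 815, adjusted p = 0.0017). The difference from near intronic summits was -0.25 points (-0.94 to 0.45, n = 719 against 1330, adjusted p = 0.72) and did not pass. Mean GC at the summit was 32.0% at the lowest and 33% at the highest over the 5 signal groups. Among peaks above the median signal of the set the difference from promoter summits was smaller, at -1.78 (n = 281 deep intronic peaks, adjusted p = 0.0037).

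**Figure D3:**
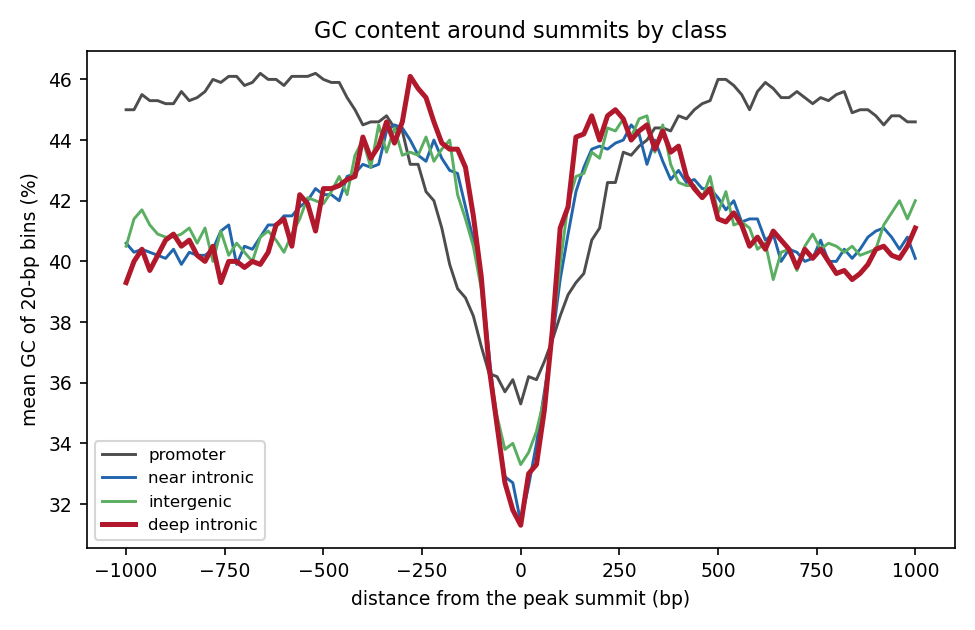
Mean GC (%) in 20-bp bins against distance from the peak summit (bp) for the 4 classes. The deep intronic line (red) falls to 31.3% at the summit between shoulders of 46.1% and 45.0%, and the promoter line has a shallower dip, with a lowest value of 35.3%.

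No word that Dpn-class proteins bind was more frequent at the summits than beside them. CACGTG stood within 50 bp of 2 of 719 summits (0.278%) and in 7 flank windows (exact McNemar test, adjusted p = 0.39), and CACGCG stood at 3 summits (0.417%) and in 11 flanks (adjusted p = 0.15). The 5 summits with either word were those of CG33298 and CG30089 with CACGTG and of mgl, Cph and dnr1 with CACGCG, and their signals ran from 136 to 262. Together they made up 0.695% of members, against 2.52% of promoter, 1.73% of near intronic and 1.10% of intergenic summits. In flanks the shares were 2.5%, 5.11%, 3.83% and 3.07% in the same order, and none of these combined shares was tested. CACGCG was called lower than in flanks at promoter summits (49 against 122, exact McNemar adjusted p = 1.2e-07). The same held at near intronic summits (11 against 33, exact McNemar adjusted p = 0.0055). These tests had no GC term, and the part of the lower GC at summits was not tested. The N-box CACNAG stood at 65 summits and in 68 flanks (exact adjusted p = 1.0).

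These tests were two-sided exact McNemar tests of summit against flank on either strand, adjusted over 22 words in 4 classes, and 25.0% of the 88 were called. Among the members 3 of 22 words were. AAAAAA was higher at summits, in 217 against 151 windows (log2 ratio 0.52, exact adjusted p = 0.00046). CAGCTG, an E-box of proneural and other proteins, was lower with 14 against 34 windows (-1.25, exact adjusted p = 0.018), and so was GAGAG, a word that GAGA factor binds, with 68 against 101 (-0.57, adjusted p = 0.036). These 3 calls were not particular to deep introns. Near intronic summits had the same 3, with log2 ratios of 0.36, -0.84 and -1.0 (exact adjusted p = 0.0018, 0.02 and 2.7e-10). AAAAAA and GAGAG were called in the same direction at promoter summits (0.69 and -0.44), where CAGCTG was not called. None of the 3 was called at intergenic summits. The word CGTGGGAA, bound by the Notch effector Su(H), stood at 1 summit and in 2 flanks, and CAGGTAG, which Zelda binds in early embryos, at 2 summits and in 3 flanks.

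Not every one of the calls among the members held without each replicate. When members were limited to peaks supported by 2 replicates, the log2 ratio of AAAAAA became smaller, at 0.30 without replicate 2 and 0.27 without replicate 3 (exact adjusted p = 0.16 and 0.25). That of CAGCTG was -1.03 in both cases (exact adjusted p = 0.14). That of GAGAG was -0.39 without replicate 1 and -0.59 without replicate 3 (exact adjusted p = 0.26 and 0.10). Against a flank 1000 bp away CAGCTG and GAGAG were no longer called (exact adjusted p = 0.33 and 0.23).

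Of 49 comparisons of a word between deep intronic and another class of summit, 3 were called (6.12%), by logistic models with clustered errors. CAGATG stood at 40 deep intronic summits (5.56%) against 2.56% of near intronic ones, an odds ratio of 2.25 (1.4 to 3.6, n = 719 against 1330, adjusted p = 0.02). It was in 3.72% of promoter and 3.19% of intergenic summits, and neither of those differences passed (n = 3250 and 815, adjusted p = 0.18 for both). With GC as a covariate the odds ratio was 2.34 against near intronic and 2.04 against promoter summits (n = 1330 and 3250, adjusted p = 0.01 for both). CAGATG also stood in 22 flanks of members, which was not a called difference (exact adjusted p = 0.091).

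The CAGATG call against near intronic summits, a log odds of 0.81, was lost without each replicate in turn, at log odds from 0.65 to 0.72 with adjusted p from 0.14 to 0.22. With windows of 100 bp either side the log odds was 0.26 (n = 719 against 1330, adjusted p = 0.48). With start-site limits of 2500 and 10000 bp it was 0.37 and 0.36 (n = 1126 and 334 deep intronic peaks, adjusted p = 0.48 and 0.80). CAGCTG was at 1.95% of deep intronic and 5.17% of promoter summits, an odds ratio of 0.364 (n = 719 against 3250, adjusted p = 0.01) that became 0.53 with GC as a covariate (adjusted p = 0.17). AAAAAA was at 30.2% of deep intronic and 24.2% of promoter summits, an odds ratio of 1.36 (n = 719 against 3250, adjusted p = 0.028) that became 1.13 with GC (adjusted p = 0.59). Both were also lost without each replicate, with adjusted p from 0.13 to 0.35 for CAGCTG and from 0.22 to 0.38 for AAAAAA.

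The 9-base word GCGCCATCT, chosen after the CAGATG sequences were seen and so not tested, stood at 8 member summits (1.11%, 0.482 to 2.18) and in 1 flank. It stood at 0.708% of promoter and 0.451% of near intronic summits. Its share was higher at intergenic summits, with 16 of 815, and highest at exonic summits, with 5 of 139 (3.6%, 1.18 to 8.19). The word overlaps CAGATG by 5 letters where a G follows. Of all 2080 words of 6 letters, counted with no test, those with the highest ratio of member summits to flanks were TAGTGA with 32 against 5 and AGCTAG with 22 against 3. The lowest ratios were those of CCTCCC with 1 against 30 and GGGCGA with 2 against 35. TAGTGA ranked 226th of these words at promoter summits, and AGCTAG ranked 54th.

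The density of intronic peaks fell with distance from the nearest protein-coding start. In introns it was 96.9 peaks per Mb (87.3 to 107) up to 1 kb from a start, beyond the 500 bp of the promoter class, and 43.2 (39.1 to 47.6) from 2.5 to 5 kb. Among the deep intronic peaks it was 37.2 (32.6 to 42.4) from 5 to 7.5 kb, 33.9 (28.7 to 39.8) from 7.5 to 10 kb, 24.7 (21.6 to 28.2) from 10 to 20 kb and 17.6 (14.3 to 21.3) from 20 to 50 kb. Beyond 50 kb 10 peaks lay in 5.26 Mb, or 1.90 per Mb (0.911 to 3.49). The decline thus ran on both sides of the 5000 bp limit.

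The median distance of members to a protein-coding start was 9480 bp, and the largest was 85823 bp, for a peak in hth. The member just inside the limit lay 5008 bp from the start of CG46339 with a signal of 200, and the near intronic peak just outside lay at 5000 bp, by cno, with a signal of 245. For the limit to any start, the member closest to it lay at 541 bp and had a signal of 308, and the intronic peak just outside lay at 475 bp with 198. Median signal was 189 from 5 to 7.5 kb, 174 from 10 to 20 kb and 204 from 20 to 50 kb.

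**Figure D4:**
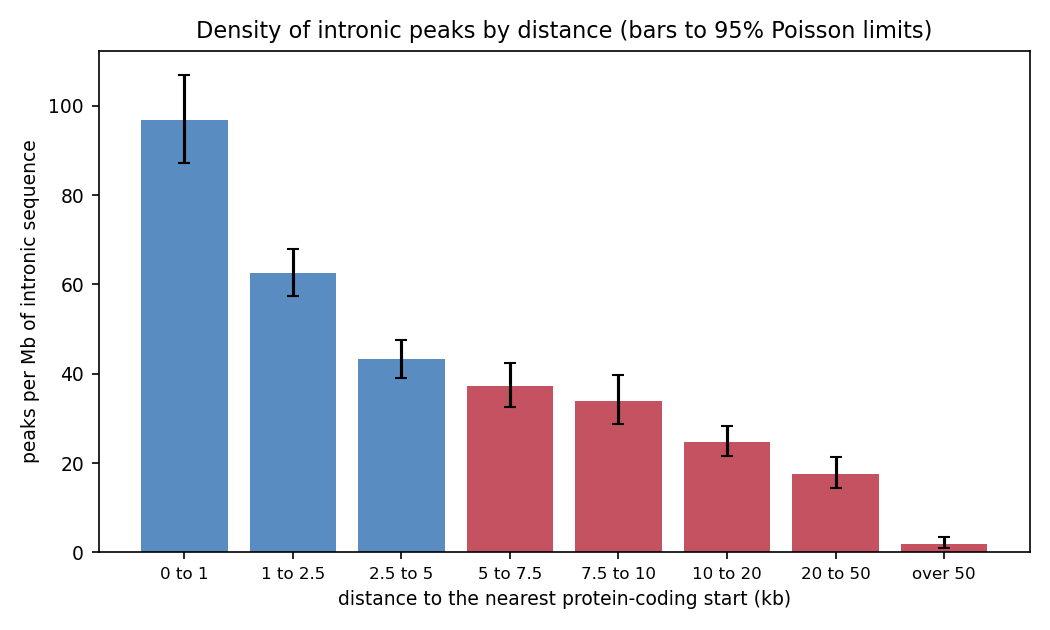
Peaks per Mb of intronic sequence by distance to the nearest protein-coding start (kb), with bars to the 95% Poisson limits. Near intronic bins are blue and deep intronic bins red. The density falls from 96.9 in the first bin to 37.2 just past 5 kb and 1.90 past 50 kb.

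Over all 30.8 Mb of sequence that met the definition, the density was 23.4 members per Mb (21.7 to 25.1), against 46.7 peaks per Mb over the whole genome. Part of that sequence held long introns with no member at all, of which those in Myo81F, with 1950 kb, and Pzl, with 698 kb, were the longest. With bases in lower case in the reference (masked as repeats) left out, the density was 24.1 members per Mb, and it was 2.73 beyond 50 kb. How well reads map to each intron was not known from the peak lists.

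First introns held a large part of the members. Of the 690 members in an intron of a protein-coding gene, 355 (51.4%, 47.6 to 55.2) lay in the first intron of at least 1 transcript. Such introns made up 30.8% of the sequence that met the definition within introns of protein-coding genes. That gave 38.7 members per Mb (34.8 to 42.9) in first introns and 16.3 (14.6 to 18.1) in later ones, with median signals of 184 and 180. The difference was present on the X chromosome, at 43.8 (34.8 to 54.4) and 27.7 (22.3 to 34.0), and on the autosomes, at 37.4 (33.1 to 42.1) and 14.1 (12.4 to 16.0). First and later introns were not matched for distance from a start, with which the density fell. Nor were the long introns with no member left out. The part of either in the difference was not tested.

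The introns were long, with a median of 18417 bp for the shortest intron around each summit. The median member lay 4856 bp from the nearest end of a host intron around it. Only 33 members (4.78%) lay within 500 bp of such an end. Exons of other genes inside these introns were not counted. The other 29 members lay only in introns of non-coding genes. They included peaks in lncRNA:CR44810 with a signal of 871, in lncRNA:CR32773 with 541, and 2 in lncRNA:iab8 of the bithorax complex with 321 and 145.

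The X chromosome held a larger share of the members than of the sequence that met the definition. X carried 183 of 719 members (25.5%, 22.3 to 28.8) on 18.5% of the sequence that met the definition, or 32.2 per Mb (27.7 to 37.2), and the autosomes carried 21.4 per Mb (19.6 to 23.3). Among the autosomal arms, 2L had 25.2 per Mb, 3L 23.7, 3R 20.6 and 2R 17.8, and chromosome 4 had none on 0.292 Mb, which allows up to 12.6 per Mb.

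X held 16.8% of promoter, 23.6% of near intronic and 11.8% of intergenic peaks. In a logistic model chosen after these shares were seen, the odds that a deep intronic peak was X-linked were 1.69 times those of a promoter peak (1.29 to 2.23, n = 719 against 3250, adjusted p = 0.00022) and 2.56 times those of an intergenic peak (1.79 to 3.66, adjusted p = 8.7e-07). Against near intronic peaks the odds ratio was 1.10 (0.837 to 1.46, n = 719 against 1330, adjusted p = 0.48) and did not pass. Without kirre, the X-linked gene with most members, X had 31.4 per Mb. In genes with up to 20 kb of such sequence it was 46.4 (35.3 to 59.8) on X and 33.4 (29.1 to 38.3) on autosomes. These intervals overlapped. From 20 to 50 kb it was 41.7 (32.3 to 53.1) and 27.5 (23.9 to 31.6), and above 50 kb 19.7 (14.6 to 26.0) and 10.6 (8.84 to 12.7). Myo81F and Pzl, the longest genes with no member, lie on 3R, so their 1950 and 698 kb count in the autosomal length only. The next longest, lovit, CG17684, DIP-lambda and bru3 with 425, 385, 372 and 246 kb, are autosomal too. How much of the difference between X and autosomes rests on such empty genes was not tested. The share of X copies in the pooled embryos, and its part in the result, was not tested.

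The 690 members with a protein-coding host lay in 363 genes, out of 1847 with deep intronic sequence (19.7%). Of these hosts 201 held 1 member, 162 held more, and the 29 with at least 5 held 161 members. Hosting became more common with the length on offer. Genes with up to 5 kb of it hosted a member in 5.15% of cases and those with over 50 kb in 46.9%, while the density in the same groups was 3.5 and 1.23 members per 100 kb.

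The host of most members was kirre, an immunoglobulin-type adhesion gene of muscle founder cells, with 12 in 233 kb and signals from 129 to 260. Next was sbb with 10 in 35.6 kb and signals from 129 to 643. hth, which encodes a homeodomain cofactor of Hox proteins, held 8 in 106 kb, tara 7 in 16.1 kb and Hr4 7 in 39.3 kb. The genes with 6 were Raf, pnt, rdx, Sema1a, eIF5B, NetA and ftz-f1. Per length tara had 43.4 members per 100 kb, sbb 28.1 and Raf 29.5, while kirre had 5.16 and Sema1a 5.42.

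Members were joined into chains with other deep intronic members only. With summits within 10 kb of the next one joined, 376 members (52.3%) formed 141 chains and 343 stood alone. Peaks of other classes could lie within 10 kb of a lone member. The same share over all 6253 peaks was not computed, so whether 52.3% is high is not known. The longest chain was the 10 members of sbb, over 19.3 kb, followed by 6 members in rdx over 18.6 kb and 6 in NetA over 22.5 kb. Chains of 5 lay in B4 over 2.73 kb, simj over 5.41 kb, Raf over 5.88 kb, pnt over 9.31 kb, ftz-f1 over 9.42 kb and Antp over 16.7 kb. The strongest member of the Raf chain had a signal of 570 and lay 8629 bp from the Raf start.

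The host was not always the nearest gene. For 485 of the 690 members (70.3%) the nearest protein-coding start was a host's, and for 205 (29.7%) it belonged to another gene. The strongest member, in CG32486, lay 5703 bp from the start of CG16753. Of the 6 members in eIF5B, 3 lay closest to the start of sty, which encodes the EGFR signalling inhibitor Sprouty, with signals of 445, 253 and 142.

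Genes of the EGFR and Ras pathway, which carries a growth factor signal from the cell surface to the nucleus, had the highest density among the lists examined. Of 11 with deep intronic sequence 8 hosted a member (72.7%, against 19.7% of all such genes), with 22 members at 12.6 per 100 kb (7.88 to 19.0, against 2.32 for all protein-coding genes). Their median signal was 212, against 182 for all members. The value of 2.32 was not matched for length. Over all genes with up to 5, 5 to 10, 10 to 20 and 20 to 50 kb, the density was 3.5, 3.62, 3.55 and 3.0 per 100 kb. It was 1.23 in genes with over 50 kb. The longest genes of the EGFR and Ras, nuclear receptor and glial lists had 42.2, 45.4 and 31.9 kb. Raf, a kinase below Ras, held 6 members with signals of 570, 533, 481, 321, 228 and 145. pnt, which encodes an ETS factor at the end of the pathway, held 6 from 128 to 496, and vn, which encodes a ligand, held 4 from 132 to 253.

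ru, a protease gene of ligand processing, held 2 members with 206 and 192, Egfr, the receptor, 1 with 189, and aos, an inhibitor of the receptor, 1 with 128. RasGAP1, which encodes an inhibitor of Ras, held 1 with 218. The 1 member in S, which encodes the trafficking factor Star, had a signal of 392 and uneven ranks of 182, 6486 and 1837 in replicates 1, 2 and 3. Replicate 1 placed it far above the other replicates.

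Nuclear receptor genes held 20 members in 5 of 11 genes (45.5%), at 8.22 per 100 kb (5.02 to 12.7) and with a median signal of 294. Hr4 held 7 of them, with signals of 1052, 853, 731, 417, 270, 263 and 168. ftz-f1 held 6 from 129 to 235 and Eip75B 5 from 186 to 353, and Hr3 and EcR, the ecdysone receptor, held 1 each with 1366 and 533. All 5 host genes are known from the ecdysone response of later stages.

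Hox genes and cofactors held 15 members in 3 of 10 genes (30% of genes), at 4.98 per 100 kb (2.79 to 8.21). They were the 8 of hth with signals from 138 to 470, 5 in Antp from 174 to 334, and 2 in Ubx with 205 and 128. The Antp members also lay in the overlapping gene CG46458. Muscle and mesoderm genes held 17 in 6 of 15 genes (40.0%), at 4.16 per 100 kb (2.43 to 6.67), 12 of them in kirre. The others included how, an RNA-binding protein gene, with 372, Mef2, a muscle transcription factor gene, with 248, and the integrin gene if with 162.

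For the Notch pathway, neuroblast and patterning lists the interval of the density included the 2.32 of all genes. Of 8 Notch pathway genes 3 hosted 7 members (37.5% of genes, 4.14 per 100 kb, 1.67 to 8.54). They were N with 606 and 178, mam, which encodes the coactivator Mastermind, with 255, 171, 164 and 162, and kuz, which encodes a protease that cleaves Notch, with 180. Of 11 neuroblast genes 3 hosted 6 members (27.3%, 4.07 per 100 kb, 1.49 to 8.86), namely the polarity genes scrib, with 3 members up to 470, and baz, with 160 and 138, and the growth regulator brat with 327.

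Temporal and spatial patterning genes of the nervous system held 9 members in 2 of 14 genes (14.3%, 2.74 per 100 kb, 1.25 to 5.20), 8 of them the hth members already counted and 1 in mamo with 414. Axon guidance and adhesion genes held 44 in 15 of 35 genes (42.9%, 3.27 per 100 kb, 2.38 to 4.39, an interval above 2.32). Among them Sema1a held 6 from 142 to 469, Fas3 3 from 127 to 454, side 3 from 125 to 340 and NetA 6 from 136 to 320. With repeat-masked bases left out, the axon guidance list had 33.9 members per Mb (23.6 to 47.2). That interval included the 23.8 per Mb of all protein-coding genes. The list had a median of 28.6 kb of deep intronic sequence per gene, and 39.3% of all genes with 20 to 50 kb hosted a member. Glial genes held 7 in 2 of 4 genes (50% of genes, 11.3 per 100 kb, 4.56 to 23.3, also above 2.32). They were the 6 of pnt, already counted with the EGFR and Ras pathway, and 1 in NetB with 158. NetB is also on the axon guidance list, so none of the 7 is new.

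Ion channel and neurotransmitter receptor genes, which neurons use once mature, had few. Of 30 such genes with 803 kb of deep intronic sequence 2 hosted a member (6.67%, against 19.7%), at 0.249 per 100 kb (0.0302 to 0.899). These were Ca-alpha1T with 191 and mAChR-B with 148. No member lay in nAChRalpha6 with 78.8 kb, nAChRalpha4 with 57.0 kb, Sh with 55.4 kb or para with 50 kb. The 3 cell cycle genes with such sequence had only 17.9 kb and no member. Median signals of the members in each of the remaining lists, set beside 182 for all members, were 178 for the Notch pathway, 159 for neuroblast genes, 287 for patterning genes of the nervous system and 172 for axon guidance genes. They were 170 for ion channel genes, 211 for Hox genes and cofactors, 200 for glial genes and 221 for muscle and mesoderm genes.

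**Figure D5:**
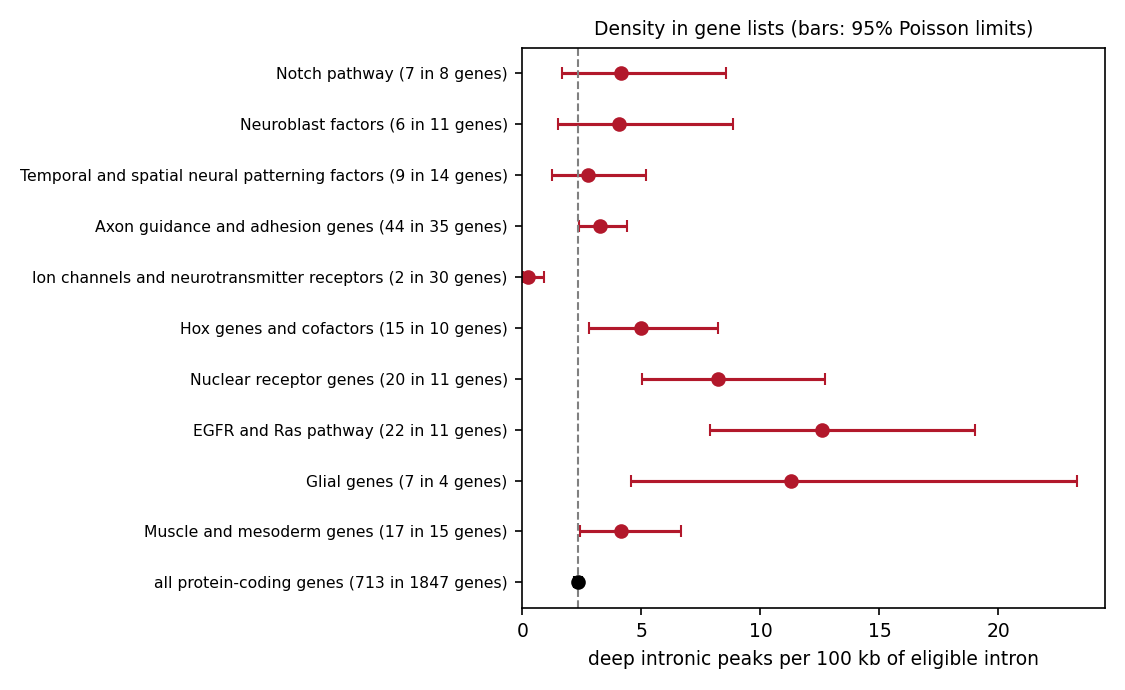
Deep intronic peaks per 100 kb of deep intronic sequence in each gene list, with bars to the 95% Poisson limits and the value of all 1847 protein-coding genes (2.32) as a dashed line; counts of peaks and genes stand beside each name. EGFR and Ras pathway genes sit highest at 12.6 and ion channel genes lowest at 0.249; the list of 3 cell cycle genes is not drawn.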

How the data were processed

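Peak lists on dm6 (Release 6) were used, and the dm3 lists were not. Peak signal was used as the authors deposited it, on a scale that no source defines. Per the deposited text listings, a control file entered each call (per the labels the possible control is another experiment, not analysed here, and its match to these embryos is not known), and the thresholded set was made by the irreproducible discovery rate procedure. Its 6253 peaks were the first 6253 of the pooled list by signal. No aligner, peak caller, limit of the procedure or read depth is stated (not given in the sources used here), so the precision per peak is unknown.

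Summits were placed on Ensembl release 115 gene models (BDGP 6.54, 13945 protein-coding genes) for the X, the fourth chromosome and the arms of the large autosomes. Models were ordinary least squares or logistic regressions with errors clustered by the nearest gene. They ran over all 6253 peaks, apart from the word models, which left out exonic peaks and any class not tested for the word. Words at summits and in flanks were compared by exact McNemar tests. All tests were two-sided and adjusted by Benjamini-Hochberg with a threshold of 0.05. Words needed at least 5 peaks in both classes for a model. The linear and logistic models and the McNemar test were checked on simulated data. Python 3.11.15, pandas 2.3.3, numpy 2.4.6, scipy 1.17.1, statsmodels 0.14.6 and matplotlib 3.10.9 were used.

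The members, gene lists and words were chosen with earlier results of these data known. Genes named are the hosts of the 20 strongest members, the 10 hosts with most members and those tied with them, up to 4 hosts per list, and the peaks next to each limit; ru, Egfr, aos, RasGAP1 and ftz-f1 and the members with Dpn words were added after their values were seen, and hiw, no channel gene, was then taken off its list. Alternatives were other start-site limits, windows, flanks, covariates and overlap rules, the peaks with signal above the median of the set, and leaving out each replicate. Sequences are from the RefSeq assembly.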

Additional observations from a re-analysis of the deposited data

How the results depend on the processing

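Of the summary results and alternatives run, 122 kept direction and side of the threshold or moved little, 27 moved, 2 changed sign with a call, 2 gained a call and 1 lost one. Among single words, 524 were unchanged in this sense, 33 lost a call and 12 gained one. Start-site limits of 10000 and 2500 bp left 334 and 1126 members, and the peaks above the median signal of the set 281. The GC difference from intergenic summits was -1.16 percentage points at 10000 bp (n = 334, adjusted p = 0.087). Log2 width, not called in the whole set (0.01 against near intronic and 0.03 against promoter peaks), was -0.14 and -0.15 above the median signal. Support without the signal term gave log odds of -0.46 and -0.52. Words called against near intronic summits numbered 0 at both limits, with windows of 100 bp and without each replicate (0 to 0). Those against promoter summits numbered 1 with GC as a covariate, 0 at 10000 bp, 4 at 2500 bp, 1 above the median signal, 5 with windows of 100 bp and 0 to 0 without a replicate. Words higher than in flanks numbered 0 above the median signal and 0 to 1 without a replicate. Words lower numbered 0 with flanks 1000 bp away, 1 at 10000 bp, 4 at 2500 bp, 0 above the median signal, 0 to 2 without a replicate and 1 without the X chromosome. Leaving out repeats, the X chromosome, or adding log2 signal to the GC model were chosen after seeing the data. Causes of these changes were not tested. Samples could not be paired because there was 1 group of 3 replicates, and the McNemar tests were paired by peak. Depth is unknown, so weak members near the threshold are the least certain. Full replicate support was 8.42% among them, a share that is low partly by construction.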
